A study of Mus musculus with 74 samples.

Results

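The comparison described here is that of lung metastases (Lung met) with primary tumors (PT) in 1 cross of mice, BALB PyMT-F1. Its members are all 17363 rows of the expression table deposited for that cross, out of a series of 74 samples in which 5 other mouse models were also sequenced. Values were given for 17270 rows. Of these, 14599 carried a gene symbol, and the 2671 without one are described apart. The table for a second cross, SEAGn PyMT-F1, had 17404 rows and serves below as the comparison.

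The mice were transgene-positive F1 females from FVB males carrying MMTV-PyMT and BALB/cJ females; the SEAGn mice had the same fathers' strain and Sea/GnJ mothers. In both crosses the mouse mammary tumor virus (MMTV) promoter drives the polyoma middle T antigen (PyMT), a viral oncoprotein, chiefly in the mammary epithelium. Within a cross, PT and Lung met samples thus inherited the same transgene and the same mixed strain background. Their genomes were not identical, as the study reports fewer regions of copy number change in BALB PTs than in matched Lung mets. The labels name no treatment, and mice were followed until tumor burden required humane endpoints; ages are not given in the labels. There were 6 PT and 6 Lung met samples from 6 BALB animals, each animal giving both. All PTs of an animal were combined and sampled at random, and whole metastases were used, so surrounding tissue could be carried along on either side. Titles and tissue labels agreed for all 12 samples, but 6 had a source label naming the other tissue and 9 had a genotype label naming another strain; strain and tissue follow the titles.

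Mammary tumors hold epithelial cells together with fibroblasts that lay down collagen, vessels and immune cells, and a metastasis grows among alveolar cells, capillaries and elastic fibers of the lung. Alveolar type 1 cells form the thin gas-exchange surface and type 2 cells secrete surfactant. In tumors, activated fibroblasts build a fibrillar collagen matrix that stiffens the tissue. In RNA from whole tissue, fewer cells of a type and less RNA per cell cannot be told apart.

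Each gene had 1 mean of normalized counts per tissue, the authors' mean over the 6 samples, with no value for a single sample; the spread between animals is therefore not shown, and levels are not compared between genes because they are not divided by gene length. The size of a change is the Lung met mean divided by the PT mean, given as a fold or as its log2. Its standard error (SE) was taken from the deposited P-value under the normal approximation of the authors' test, and the false discovery rate (FDR) was recomputed over all 17270 rows. A gene is said to have risen or fallen where the FDR was under 0.05. When rows were split into 10 equal classes by level, the median SE fell from 0.55 in the lowest class to 0.13 in the highest, so a change of a given size was less certain in a weakly expressed gene. The 6 samples per tissue are from separate animals.

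In BALB, 203 rows (1.18%) rose and 287 (1.66%) fell in Lung mets. At least 2-fold changes made up 128 of the rises and 203 of the falls, and at least 8-fold changes 22 and 23. The rises included 8 of 15 alveolar type 2 genes, 8 of 14 alveolar type 1 genes and 7 of 25 endothelial genes. The falls included 9 of 16 genes of the fibrillar and fibril-associated collagen list and 7 of 19 cancer-associated fibroblast markers. Skeletal muscle genes had the lowest median of the 44 lists. The median log2 change over all rows was 0.03, and 44.7% of rows had the lower mean in Lung mets. Of the 490 rows called, 96 had a mean under 10 in one of the tissues.

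**Figure D1:**
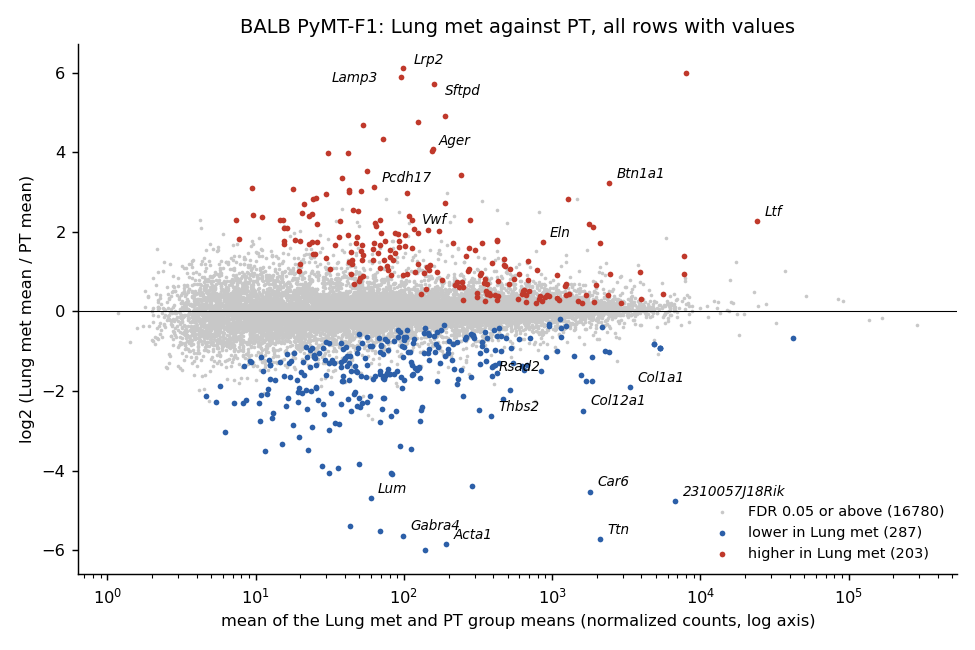
Change in Lung mets against expression level in BALB PyMT-F1, 1 point per row with values. The horizontal axis is the average of both group means in normalized counts on a log scale, the vertical axis is log2 of the Lung met mean over the PT mean, and colored points have an FDR under 0.05 (203 higher, 287 lower). The alveolar genes Lrp2, Lamp3 and Sftpd are labelled among the highest points, and Acta1, Ttn and Gabra4 among the lowest; rows without a symbol are plotted but not labelled.

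Among rows with a symbol, the 3 largest rises were of genes on the alveolar type 2 list. Of 15 measured genes of alveolar type 2 cells and surfactant, 8 rose and none fell (median log2 2.14). Lrp2, which encodes the endocytic receptor megalin, went from a mean of 2.79 normalized counts in PTs to 195 in Lung mets, log2 6.12 ± 0.67 (SE, FDR = 1.93e-16). Lamp3, which encodes a protein of the surfactant-storing lamellar bodies, went from 3.12 to 187 (log2 5.91 ± 0.66, FDR = 7.03e-16). Sftpd, which encodes surfactant protein D, went from 5.97 to 315 (log2 5.72 ± 0.66, FDR = 1.06e-14). Lrp2, Lamp3 and Sftpd all had single-digit means in PTs. The aspartic protease gene Napsa (log2 3.54), the phosphate transporter gene Slc34a2 (log2 2.19), the lysozyme gene Lyz2 (log2 2.14), the complement gene Hc (log2 4.78) and the fatty acid carrier gene Cd36 (log2 3.43) rose as well. The lipid transporter gene Abca3, which type 2 cells use to load surfactant and which was already at 1731 in PTs, had 2227 in Lung mets (log2 0.36 ± 0.13, FDR = 0.117). Sftpb and Sftpc, further surfactant genes, are not in the table used here.

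Among 14 measured genes of alveolar type 1 cells, 8 rose and none fell (median log2 1.32). Ager, which encodes a receptor for advanced glycation end products that is abundant on these cells, went from 17.6 to 290.3 normalized counts (log2 4.04 ± 0.44, FDR = 1.93e-16). Clic5, an intracellular chloride channel gene, went from 17.5 to 296 (log2 4.08 ± 0.48, FDR = 1.64e-14). Hopx, a homeodomain cofactor gene, rose by log2 3.37, and Rtkn2 by log2 2.85. Akap5, Scnn1g, Gprc5a and Emp2 rose by log2 1.78, 2.52, 1.92 and 0.64. The other 6 did not pass; the water channel gene Aqp5 had the lower mean in Lung mets (3463 in PTs, 2191 in Lung mets, FDR = 0.576), and the podoplanin gene Pdpn had 84.7 and 106. Summed over the measured members, type 1 genes came to 6069 normalized counts in PTs and 6457 in Lung mets, and type 2 genes to 10410 and 17326. Such sums, here and below, weigh the most abundant members most and are no measure of a list's net change. Of the type 1 sums, Aqp5 alone made up 3463 and 2191. How much normal lung the Lung met samples held was not tested.

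Of 7 measured airway genes of club and ciliated cells, only Aldh1a1 rose and none fell. This retinaldehyde dehydrogenase gene went from 22.7 to 106 (log2 2.22 ± 0.53, FDR = 0.00203). The club cell cytochrome gene Cyp2f2 had means of 89.3 and 181 (FDR = 0.386), and Foxj1, which drives ciliated cell genes, 26.2 and 31.3 (FDR = 0.922). Of 13 lung mesenchyme and fibroblast genes, 3 rose and none fell (median log2 0.51), all 3 of them developmental transcription factor genes. Foxf1, a forkhead gene needed for lung mesenchyme and capillaries, went from 3.67 to 58.1 (log2 3.99 ± 0.51, FDR = 3e-12). The T-box genes Tbx2 and Tbx3 rose by log2 2.15 ± 0.41 and 1.98 ± 0.41.

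**Figure D2:**
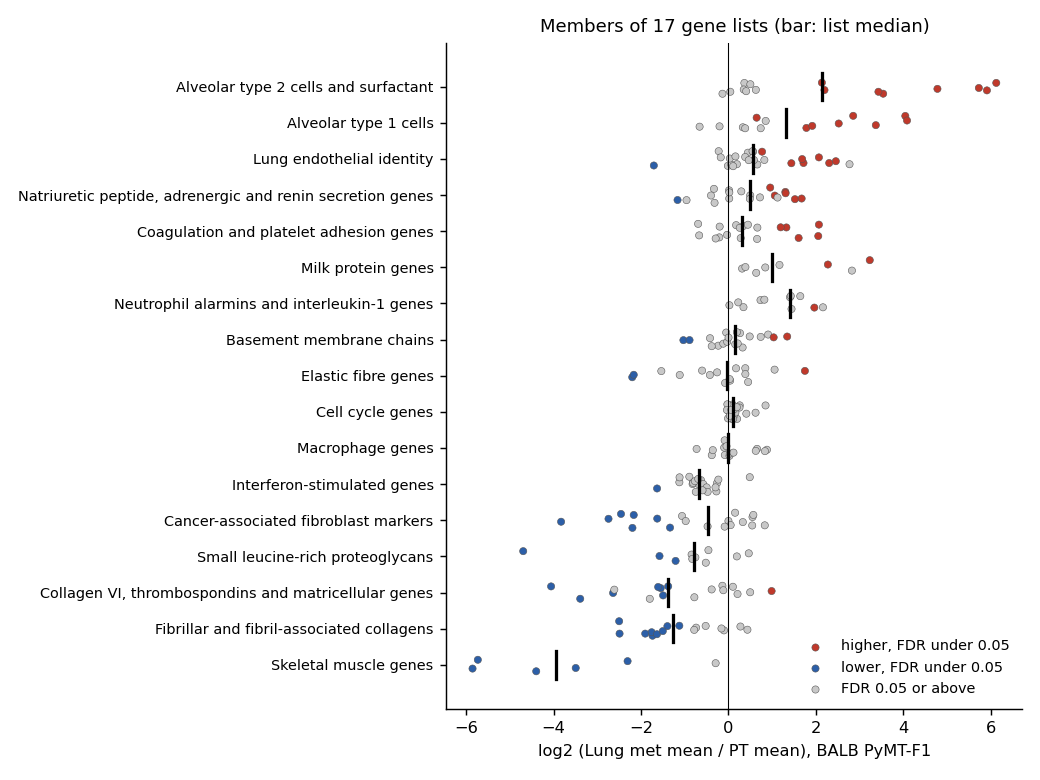
Log2 of the Lung met mean over the PT mean in BALB PyMT-F1 for the members of gene lists. Each point is 1 gene with values, red or blue where the FDR was under 0.05, and the black bar is the list's median. The alveolar lists lie to the right (medians 2.14 and 1.32). The fibrillar and fibril-associated collagen list and the skeletal muscle list lie to the left (medians -1.26 and -3.94). The cell cycle and macrophage medians are 0.11 and -0.01.

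Of 25 measured genes of lung endothelial identity, 7 rose, 1 fell and 17 did not pass (median log2 0.55; summed means 8442 in PTs and 10412 in Lung mets). Vwf, the von Willebrand factor gene, went from 45.3 to 189.9 normalized counts (log2 2.07 ± 0.27, FDR = 2.88e-11). Calcrl, which encodes the receptor subunit for adrenomedullin, went from 94.7 to 467 (log2 2.30 ± 0.32, FDR = 2.14e-10). Tmem100, Cldn5 (the tight junction protein claudin 5), Sox17, Hpgd (prostaglandin breakdown) and Cdh5 (VE-cadherin) rose by log2 2.45, 1.71, 1.44, 1.68 and 0.77. The endothelin receptor gene Ednrb went the other way, from 112 to 34.4 (log2 -1.71 ± 0.25, FDR = 5.96e-09). None of 19 measured genes of VEGF, angiopoietin and Notch signalling passed the test; the VEGF receptor gene Flt1 had 343 in PTs and 564 in Lung mets (FDR = 0.106), and the angiopoietin gene Angpt2 72.1 and 46.9 (FDR = 0.165).

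The genes of coagulation and platelet adhesion held 5 rises and no fall among 18. Besides Vwf they were Thbd, which encodes the anticoagulant receptor thrombomodulin (56.5 to 234, log2 2.05 ± 0.34, FDR = 4.72e-07), the thrombin receptor gene F2r (272 to 682, log2 1.32 ± 0.25), and the adhesion molecule genes Icam1 (55.8 to 169.6) and Icam2 (12.1 to 27.6). The leukocyte integrin list shared both Icam genes and had no other call among 8 members, of which 4 had an unadjusted P-value under 0.05; Itgb2, the common beta chain, had 80.9 and 171 (FDR = 0.171).

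Of 19 measured genes of natriuretic peptide, adrenergic and renin secretion signalling, 6 rose and 1 fell (median log2 0.49). Acer2, an alkaline ceramidase gene, went from 177 to 369.7 (log2 1.06 ± 0.16, FDR = 2.02e-08). The natriuretic peptide receptor gene Npr1 went from 35.7 to 88.0 (log2 1.30 ± 0.40, FDR = 0.0404) and passed narrowly. Both subunits of soluble guanylate cyclase, the nitric oxide receptor that makes cyclic GMP, rose: Gucy1b3 from 16.4 to 52.4 (log2 1.67 ± 0.26, FDR = 5.62e-08) and Gucy1a3 from 42.2 to 104 (log2 1.31 ± 0.32, FDR = 0.00409). The phosphodiesterase gene Pde3a rose by log2 0.95, and the adenylyl cyclase gene Adcy5 was the one that fell, from 75.2 to 33.5 (log2 -1.16 ± 0.32). Pde5a, which encodes the phosphodiesterase that degrades cyclic GMP and belongs to a list added after values were seen, went from 96.7 to 199 (log2 1.04 ± 0.17, FDR = 1.58e-07).

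Among axon guidance and protocadherin genes, 2 of 22 rose and none fell. Pcdh17, a protocadherin gene, went from 13.0 to 113 (log2 3.12 ± 0.36, FDR = 1.59e-14), and the semaphorin gene Sema3c from 92.0 to 179.9 (log2 0.97 ± 0.27, FDR = 0.0149). Genes outside the lists were among the strongest rises: the sodium channel beta subunit gene Scn3b (log2 3.98), the inter-alpha-trypsin inhibitor gene Itih4 (log2 4.69), the arterial connexin gene Gja5 (log2 1.87) and the tetraspanin gene Tspan9, whose rise was small but precise (256 to 452, log2 0.82 ± 0.11, FDR = 6.51e-11). Rnase4, a secreted ribonuclease gene, had 155 in PTs and 191 in Lung mets and did not pass (log2 0.30 ± 0.33, FDR = 0.809).

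All 8 measured milk protein genes had the higher mean in Lung mets (median log2 1.00), and 2 passed. Ltf, the lactoferrin gene, went from 8306 to 40131 (log2 2.27 ± 0.37, FDR = 3.38e-07). Btn1a1, which encodes the butyrophilin of milk fat globules, went from 465 to 4368 (log2 3.23 ± 0.89, FDR = 0.0152). Wap, the whey acidic protein gene, had 365 and 2584, a 7.07-fold quotient with a wide error (log2 2.82 ± 0.98, FDR = 0.0987), and Csn3, the kappa-casein gene, had 75664 and 93893 (FDR = 0.77). The caseins Csn2, Csn1s2a and Csn1s2b are listed without values. In a list of 14 milk lipid and mineral secretion genes that was added after values were seen, 5 rose and none fell: Fasn, the fatty acid synthase gene (4251 to 11265, FDR = 0.0017), Btn1a1, the copper pump gene Atp7b (11.3 to 91.8, FDR = 0.00134), and the calcium pump genes Atp2b2 (23.5 to 186, FDR = 0.0198) and Atp2c2 (191 to 653, FDR = 0.00539).

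Epithelial identity lists held few calls. Of 18 luminal keratin, lineage factor and hormone receptor genes, only Spdef, an ETS factor gene of secretory epithelia, passed, falling from 223 to 39.9 (log2 -2.48 ± 0.58, FDR = 0.00178). Epcam, the epithelial adhesion molecule gene, had 4059 in PTs and 4115 in Lung mets (95% interval of log2, -0.18 to 0.22), and Elf5, a luminal progenitor factor gene, 3669 and 5303 (FDR = 0.137). None of 13 basal and myoepithelial genes passed; Krt5, a basal keratin gene, had 406 and 1158 (FDR = 0.0595). Among 12 ERBB receptor and ligand genes only Egf passed, falling from 119 to 39.8 (log2 -1.58 ± 0.36, FDR = 0.00132). Of 15 genes of epithelial-mesenchymal transition and cadherins, the mesenchymal homeobox gene Prrx1 fell (173 to 64.2, FDR = 4.26e-07) and the fibronectin gene Fn1 rose (2638 to 5225, log2 0.99 ± 0.28, FDR = 0.0224). Snai1 and Zeb1, transcription factor genes of the transition, did not pass (FDR = 0.153 and 0.519).

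None of 22 cell cycle genes passed, though 18 had the higher mean in Lung mets (median log2 0.11). Mki67, the proliferation marker gene, had 4407 in PTs and 4749.8 in Lung mets (95% interval of log2, -0.40 to 0.61), and Top2a, the topoisomerase gene of dividing cells, 1402 and 1676 (95% interval, -0.25 to 0.76). Of 19 hypoxia and glycolysis genes, 17 had the higher mean in Lung mets and only Ldha, the lactate dehydrogenase A gene, passed (4736 to 6431, log2 0.44 ± 0.11, FDR = 0.00503). Car9, a carbonic anhydrase gene induced by hypoxia, lay on the other side with 226 and 122 (FDR = 0.0913). Among 14 retinoic acid genes only Aldh1a1 passed.

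Of 16 genes on the fibrillar and fibril-associated collagen list, 9 fell, none rose, and 14 had the lower mean in Lung mets (median log2 -1.26). The list also holds the short-chain collagen genes Col8a1 and Col8a2. Col1a1 and Col1a2, which encode the chains of type I collagen, went from 5297 to 1416 (log2 -1.90 ± 0.30, FDR = 4.54e-08) and from 2836 to 851 (log2 -1.74 ± 0.30, FDR = 1.87e-06). Col3a1, the type III chain, went from 2620.2 to 776 (log2 -1.76 ± 0.38, FDR = 0.000465). The changes of Col1a1, Col1a2 and Col3a1 lay within 1 SE of each other. Col12a1, a collagen on the surface of fibrils, went from 2763 to 489 (log2 -2.50 ± 0.23, FDR = 3.14e-23), and the short-chain collagen gene Col8a1 from 543 to 96.6 (log2 -2.49 ± 0.36). Col5a1, Col5a3 and Col14a1 fell by 1.40, 1.63 and 1.12 on the log2 scale, and Col8a2 went from 102 to 36.0. Of 18 collagen processing and crosslinking enzymes only the lysyl hydroxylase gene Plod1 fell (449 to 282, FDR = 0.0405); the crosslinking enzyme gene Lox had 295 and 271 (FDR = 0.944).

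Among 17 genes of collagen VI, thrombospondins and matricellular proteins, 7 fell, 1 rose and 9 did not pass (median log2 -1.38). Thbs2, the thrombospondin 2 gene, an inhibitor of angiogenesis, went from 666 to 107 (log2 -2.64 ± 0.38, FDR = 1.63e-09), Thbs4 from 171 to 16.3, and the tenascin gene Tnn from 58.7 to 3.53. Postn, the periostin gene, went from 2339.9 to 768 (log2 -1.61 ± 0.28, FDR = 1.71e-06), and the 3 collagen VI chain genes Col6a1, Col6a2 and Col6a3 fell by 1.38, 1.55 and 1.49 on the log2 scale. The riser was Fn1. The osteonectin gene Sparc had 2498 and 2301 and did not pass (FDR = 0.837). Of 10 small leucine-rich proteoglycans, which regulate fibril assembly, Lum (115 to 4.45, log2 -4.69 ± 0.56, FDR = 7.85e-14), Aspn (104 to 34.8) and Podn (55.2 to 23.9) fell, and the decorin gene Dcn had an error too wide to place it (270.3 and 159.9, log2 -0.76 ± 0.81).

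Of 19 basement membrane genes, 2 rose and 2 fell. Egflam, which encodes pikachurin, went from 17.0 to 43.0 (log2 1.34 ± 0.33, FDR = 0.00321) and the epithelial laminin chain gene Lamb3 from 518 to 1059 (FDR = 0.0312). Nid2, the nidogen 2 gene, went from 131 to 70.7 (FDR = 0.00257) and Lama2, a laminin chain gene of muscle and mesenchyme, from 149 to 72.7 (FDR = 0.0199). Of 16 elastic fiber genes, Eln, the elastin gene, rose from 396.9 to 1333 (log2 1.75 ± 0.33, FDR = 2.67e-05), while Fbln2, which encodes fibulin 2, went from 759.9 to 165 (log2 -2.20 ± 0.19, FDR = 5.23e-27) and the microfibril gene Mfap5 from 82.0 to 18.3 (FDR = 1.68e-05).

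Metalloproteinase genes held 3 falls and 2 rises among 14. The gelatinase gene Mmp2, largely a fibroblast product, went from 406 to 92.9 (log2 -2.13 ± 0.25, FDR = 7.23e-15), the collagenase gene Mmp13 from 80.7 to 15.5 (FDR = 7.05e-06) and Mmp23 from 16.6 to 5.92. The neutrophil collagenase gene Mmp8 rose from 12.0 to 40.1 (FDR = 0.00321), and Mmp12, the macrophage elastase gene, from 68.2 to 278 (log2 2.03 ± 0.55, FDR = 0.0139). Of 18 matrix-binding integrins only Itga11, the collagen receptor subunit gene of fibroblasts, passed (43.4 to 9.19, log2 -2.24 ± 0.40, FDR = 4.76e-06).

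Of 19 markers of cancer-associated fibroblasts, 7 fell, none rose and 12 did not pass (median log2 -0.48; summed means 2166 in PTs and 1762 in Lung mets). Thy1, a surface glycoprotein gene, went from 121 to 22.1 (log2 -2.46 ± 0.21, FDR = 4.92e-29), and Serpinf1, which encodes the secreted factor PEDF, from 224 to 33.4 (log2 -2.74 ± 0.23, FDR = 1.28e-28). Pi16, a marker of resting adventitial fibroblasts, went from 92.7 to 6.53 (log2 -3.83 ± 0.55), Islr from 69.1 to 15.1, and Fap, the fibroblast activation protein gene, from 36.5 to 14.5 (FDR = 0.00134). The general fibroblast receptor gene Pdgfra did not pass, with 235 in PTs and 344 in Lung mets (95% interval of log2, -0.18 to 1.28), nor did Vim, the vimentin gene (1110.0 and 1153, 95% interval, -0.44 to 0.55). The list of lung mesenchyme and fibroblast genes described above, with 3 rises and no fall, had its median on the other side (log2 0.51). The part of fibroblast number in the collagen falls was not tested. Further falls outside the lists included Ebf1, a stromal and B cell factor gene (log2 -2.03), Cd300lg, a gene of capillary endothelium (log2 -2.57), Nov (log2 -3.89), C1qtnf3 (log2 -5.40), the basement membrane gene Frem1 (log2 -3.15), Col25a1 (log2 -2.40), Cpxm2 (log2 -4.07) and Gabra4, a GABA receptor subunit gene (194 to 3.90, log2 -5.64 ± 0.66, FDR = 1.13e-14).

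None of 18 smooth muscle and pericyte genes was called; Des, the desmin gene, had 142 and 45.3 (FDR = 0.242), Rgs5, a pericyte gene, 494 and 363 (FDR = 0.279). None of 21 TGF-beta, BMP and IGF genes passed. Igf2, an insulin-like growth factor gene, had means of 18.7 and 133 with a large error (log2 2.83 ± 1.00, FDR = 0.11). None of 9 Wnt antagonist and ligand genes passed, with Sfrp2 at 90.3 and 28.6 (FDR = 0.137), and none of 4 measured Hox genes, where Hoxa3 had 7.78 and 14.4 (FDR = 0.38).

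Skeletal muscle genes were present in the PT means and much lower in the Lung met means. Of 6 measured members, 5 fell (median log2 -3.94), and their summed means went from 5200 to 187. Ttn, which encodes the sarcomere protein titin, went from 4123 to 77.7 (log2 -5.73 ± 0.98, FDR = 1.27e-06), the skeletal actin gene Acta1 from 379.7 to 6.58 (log2 -5.85 ± 1.06, FDR = 8.35e-06), the nebulin gene Neb from 554 to 26.3, the myosin light chain gene Mylpf from 41.4 to 3.68, and the calsequestrin gene Casq1 from 17.4 to 3.53. The sixth, the myoglobin gene Mb, had 85.0 and 69.3 (FDR = 0.806). In a longer list added after values were seen, 6 of 12 fell, among them the calcium release channel gene Ryr1 (157 to 9.20). The SEs of the 5 called genes ran from 0.66 to 1.06 on the log2 scale, against a median of 0.22 over all rows.

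Of 17 genes known from salivary and other exocrine glands, listed after values were seen, 7 had values and 5 of these fell. Car6, which encodes the carbonic anhydrase secreted in saliva, went from 3444 to 149 (log2 -4.53 ± 0.75, FDR = 4.72e-07). The acinar factor gene Bhlha15 went from 1429 to 719.8 (FDR = 0.0382) and Creb3l4, a secretory cell factor gene, from 55.8 to 24.8 (FDR = 0.0314); Egf and Spdef, above, complete the 5. The uncharacterized gene 2310057J18Rik went from 13068 to 478 (log2 -4.77 ± 0.89, FDR = 1.9e-05). Of 10 adipocyte genes, the lipid droplet gene Plin4 fell (122 to 40.6, FDR = 0.000167) and Fasn rose; the defining adipocyte genes Adipoq and Plin1 are not in the table used here, and Fabp4 is listed without values. Of 11 nerve and Schwann cell genes, Ncam1 fell (154 to 46.6, FDR = 0.00151) and L1cam rose (265 to 436, FDR = 0.0166); both encode neural adhesion molecules. What nearby muscle or gland tissue contributed to the PT means was not tested.

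Most immune lists held no or 1 call. None of 14 macrophage genes passed: Cd68 had 129 in PTs and 203 in Lung mets (FDR = 0.549) and the receptor gene Csf1r 371 and 349 (95% interval of log2, -0.57 to 0.39). None of 7 measured T cell genes, 18 chemokine genes or 4 B cell genes passed. Of 18 listed T cell genes, 11 had no value, and the measured ones were weak (median SE 0.61, Cd3e 6.76 and 11.1). A change in T cell genes could thus have been missed. The antibody genes Jchain (11.1 and 65.7, FDR = 0.0611) and Igkc (69.4 and 366, FDR = 0.266) had quotients far above 1 with wide errors. All 11 measured neutrophil and interleukin-1 genes had the higher mean in Lung mets (median log2 1.41), and 1 passed, the neutrophil alarmin gene S100a9 (50.7 to 198, FDR = 0.0446); Ngp, a neutrophil granule gene, stood just outside (18.3 and 81.6, FDR = 0.0595). Of 7 MHC class II and dendritic cell genes only Clec9a, a receptor gene of cross-presenting dendritic cells, rose (4.90 to 24.1, FDR = 0.00151), with the invariant chain gene Cd74 at 1240.2 and 1791 (FDR = 0.653). Among the 15 measured genes of the complement list only C6 rose (5.67 to 36.8, FDR = 0.0182). Hc, the complement gene given above and not counted in this list, rose as well (8.73 to 239, FDR = 6.5e-09). None of 5 erythroid genes passed, with the heme synthesis gene Alas2 at 61.1 and 43.5 (FDR = 0.735).

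Interferon-stimulated genes are switched on through a promoter element bound by interferon-activated transcription factors, and many encode antiviral proteins. Of 21 measured, 20 had the lower mean in BALB Lung mets (median log2 -0.68), against 44.7% of all rows, but only 1 passed at an FDR under 0.05 and 3 at an FDR under 0.1. At an unadjusted P-value under 0.05 there were 11 of 21, against 12.2% of all rows. Rsad2, which encodes the antiviral enzyme viperin, went from 592 to 191 (log2 -1.63 ± 0.36, FDR = 0.000714). Usp18, which removes the ubiquitin-like ISG15 tag, had 284 and 131 (log2 -1.12 ± 0.37, FDR = 0.0741). Ifit2, an inhibitor of translation, had 263 and 150.3 (FDR = 0.078). The tag itself, Isg15, had 285 and 161 (log2 -0.82 ± 0.36, FDR = 0.287), and the transcription factor gene Irf7 1591 and 934 (FDR = 0.419). Some genes outside the list that are also known to respond to interferon, picked after values were seen, were called lower: Ifi27l2a (150.5 to 26.6, FDR = 0.000317), Apol9b (FDR = 0.00596), Nmi (FDR = 0.00163), Slfn2 (FDR = 0.0174) and Parp12 (FDR = 0.0396). Their direction was known when they were picked, so they are no separate evidence of a fall. Of 11 MHC class I and antigen processing genes, 9 had the lower mean and none passed, with H2-T23 at 669 and 479 (FDR = 0.46).

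**Figure D3:**
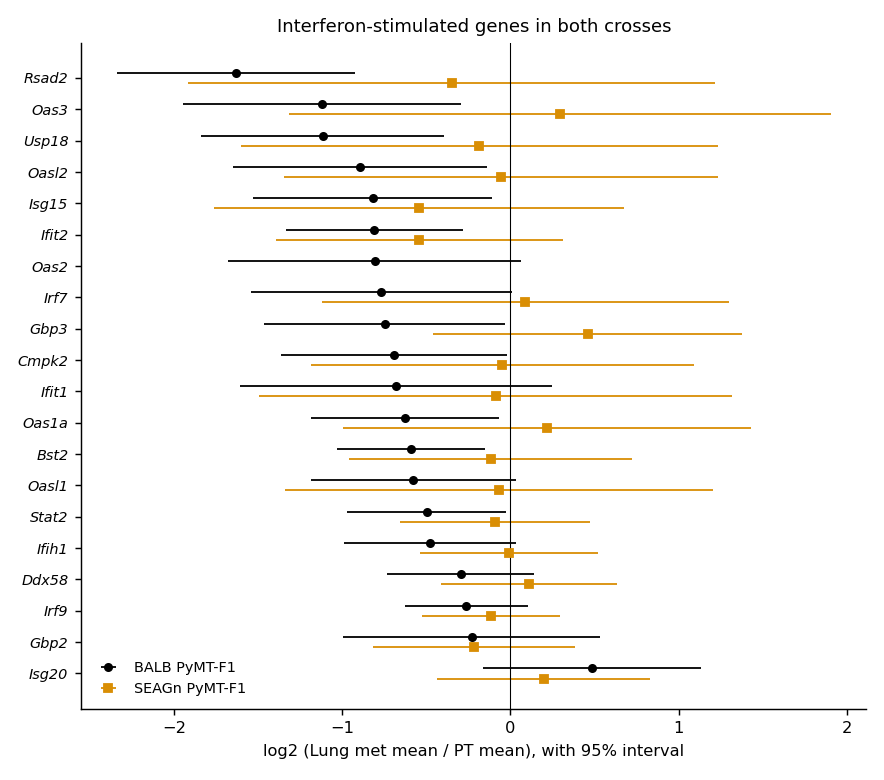
Log2 of the Lung met mean over the PT mean for 20 of the 21 measured interferon-stimulated genes, with 95% intervals, in BALB (black circles) and SEAGn (orange squares; Oas2 has no SEAGn value). In BALB, 19 of the 20 points lie below 0 and Rsad2 is lowest at -1.63, while the SEAGn points lie on both sides of 0.

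The promoters of these genes are shown because many interferon-stimulated genes are known to share a response element. The letters GAAA, then any 2 bases, then GAAA, the core of the interferon-stimulated response element, were searched on both strands in the 250 bases before the start of each gene, in RefSeq promoters of build GRCm38.p6. They were found in 9 of the 18 interferon-stimulated genes with a promoter, and in 325 of 10509 measured genes (3.09%). For comparison they were in 0 of 12 promoters of alveolar type 1 genes and 1 of 13 of alveolar type 2 genes (7.69%). They were in 0 of 12 promoters of the fibrillar and fibril-associated collagen list. The match is a description of these letters, not a bound site. A high share was known in advance for interferon-stimulated genes, so it says nothing about their change from PT to Lung met. The windows below run 5′ to 3′ on the gene's strand, with a match in capitals (TTTC, 2 bases, TTTC where it lies on the other strand). The Isg15 window holds further matches that overlap or follow the capitals and are left in lower case.
Rsad2 (chr12:26456548-26456587, minus strand): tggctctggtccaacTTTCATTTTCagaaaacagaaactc
Isg15 (chr4:156200872-156200911, minus strand): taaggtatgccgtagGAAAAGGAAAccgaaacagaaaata
Ifit1 (chr19:34640770-34640809, plus strand): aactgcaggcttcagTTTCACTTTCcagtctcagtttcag
Oas3 (chr5:120777710-120777749, minus strand): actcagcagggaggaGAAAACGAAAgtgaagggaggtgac
Stat2 (chr10:128270261-128270300, plus strand): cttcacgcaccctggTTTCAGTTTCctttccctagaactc
Rsad2, with its match 111 to 120 bases before the start, was the member that passed. Isg15, Ifit1, Oas3 and Stat2 carry the letters too and had log2 changes of -0.82 ± 0.36, -0.68 ± 0.47, -1.12 ± 0.42 and -0.50 ± 0.24, none of which passed. Ifit2 did not show the letters within this window, and Usp18 had no promoter in the table used.

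Among small noncoding RNAs every call was a fall. Of 116 rows that GENCODE annotates as small RNAs, a grouping made after values were seen, 32 fell (27.6%, against 1.66% of all rows), none rose, and the median log2 was -0.62. The falls included 14 of 23 spliceosomal snRNA rows, all of whose quotients were under 1, and 15 of 51 snoRNA rows, likewise all under 1. Rnu12, the U12 snRNA of the minor spliceosome, went from 319 to 117 normalized counts (log2 -1.45 ± 0.24, FDR = 6.79e-07), and Snora81, a guide RNA for pseudouridylation, from 40.1 to 10.6 (FDR = 0.00435). These genes exist in near-identical copies, and the 32 rows held 30 distinct pairs of means; Rnu1a1 and Gm22513, for example, had the same 6948 in PTs and 3693 in Lung mets. How counts were split between copies is not given in the sources used here. In SEAGn, 20 rows of the whole class of 116 fell and none rose (median log2 -0.63). These held 5 snRNA and 13 snoRNA rows. What sets these RNAs apart from longer ones in the libraries was not tested. The imprinted long noncoding RNAs Meg3 (154 to 40.9, log2 -1.92 ± 0.29, FDR = 1.17e-08) and Rian (84.6 to 26.9, FDR = 1.79e-05), neighbors in the Dlk1-Dio3 cluster and chosen after values were seen, also fell.

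Rows without a symbol gave 7 rises and 41 falls among 2671. MGP_BALBcJ_G0034925 had the smallest FDR of any row, going from 274 to 4.28 (FDR = 1.94e-40), and MGP_BALBcJ_G0000664 went from 143 to 70.5. MGP_BALBcJ_G0029665 rose from 247 to 15819 (FDR = 0.000246) and MGP_BALBcJ_G0016155 from 9.11 to 75.9. The files do not pair these identifiers with names. A further 93 rows were listed without values, among them the skin and hair genes Krt10, Lor, Tchh and Krt71, the basal factor Trp63, the caseins named above, the MHC class II gene H2-Eb1 and the antibody gene Ighm. Of these 93, 68 had values in SEAGn.

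Of the 459 BALB calls with values in both crosses, 275 were also called in SEAGn, and 5 differences between the crosses passed. In SEAGn 993 rows (5.72%) rose and 892 (5.14%) fell. The 2 crosses shared no animals, and 16633 genes had values in both. The median SE was 0.21 in BALB and 0.18 in SEAGn, and the BALB SE was the larger for 67.4% of genes. Each gene's difference between the crosses was tested by its BALB log2 change less its SEAGn change, over their joint SE, and 852 genes (5.12%) had an unadjusted P-value under 0.05. After adjustment 5 genes (0.0301%) differed, all with the lower change in BALB, and no gene (0%) with the higher change in BALB passed (483 at an unadjusted P-value under 0.05). The median 95% interval of a difference reached 0.55 log2 units to either side.

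**Figure D4:**
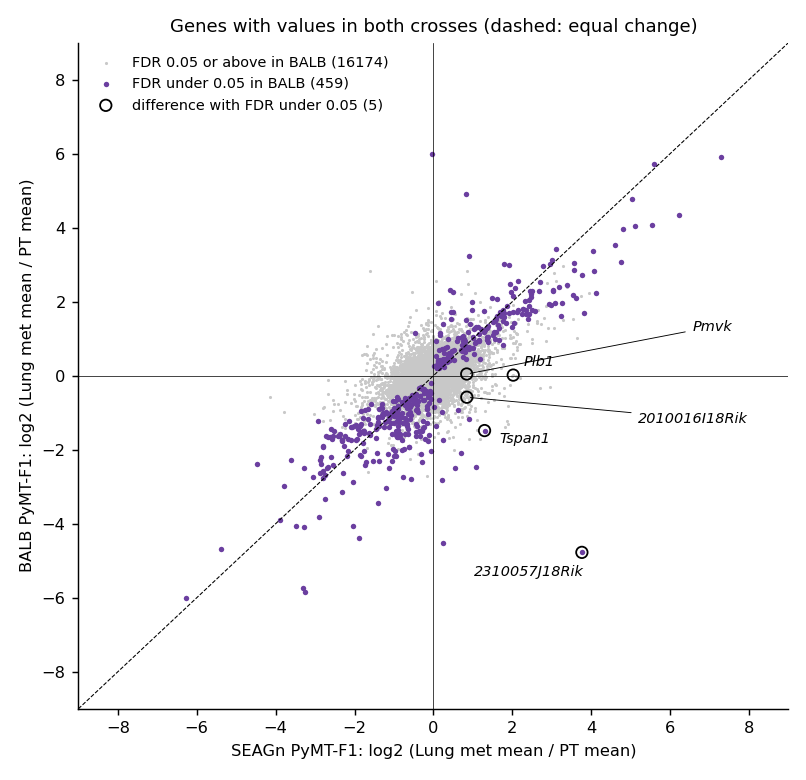
Log2 of the Lung met mean over the PT mean in BALB (vertical) against SEAGn (horizontal) for 16633 genes with values in both. Purple points were called in BALB, circles mark the 5 genes whose difference passed, and the dashed line is equal change. Of the 184 genes called in BALB alone, 169 lie on the same side of 0 in both crosses, and all 5 circled genes lie below it, 2310057J18Rik farthest.

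The gene 2310057J18Rik had opposite signs, with log2 -4.77 in BALB and 3.76 in SEAGn (means 369.5 in PTs and 5019 in Lung mets), which did not pass in SEAGn itself (FDR = 0.0516), a difference of -8.54 (95% interval, -11.73 to -5.35, FDR = 0.00262). Tspan1, an epithelial tetraspanin gene, fell in BALB (180.4 to 64.6) and rose in SEAGn (77.9 to 191), a difference of -2.78 ± 0.57 (FDR = 0.00593). Plb1, a phospholipase gene, had 85.8 and 86.8 in BALB and rose in SEAGn (47.1 to 192), with a difference of -2.01 ± 0.40 (FDR = 0.00512). Pmvk, which encodes the phosphomevalonate kinase of cholesterol synthesis, had 278 and 288 in BALB and rose from 171 to 307 in SEAGn (difference -0.80 ± 0.17, FDR = 0.0177). The fifth, 2010016I18Rik, differed by -1.43 ± 0.33 (FDR = 0.0375). Just outside the threshold were Car6 (log2 -4.53 in BALB and 0.24 in SEAGn, difference FDR = 0.0575), the metalloproteinase gene Adamts8 (-0.88 and 1.05, 0.0787), the intermediate filament gene Synm (-0.43 and 1.31, 0.0787) and Amigo2, an adhesion molecule gene whose change was the higher in BALB (0.55 and -1.67, 0.0787).

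Besides the 275 genes called in both crosses, 31 rows called in BALB had no SEAGn value, Lrp2, Foxf1, Thbs4 and Gabra4 among them. Of 184 genes called in BALB and not in SEAGn, 169 (91.8%) had the same sign in SEAGn. Among the 184, only 2310057J18Rik had a difference that passed. Of 1523 genes called in SEAGn and not in BALB, 1341 (88.0%) had the same sign in BALB, and 3 had a difference that passed. The share with the same sign over all genes measured in both crosses was not computed, so these percentages have no base share beside them. Genes called in BALB alone had a median absolute log2 change of 0.99 in BALB and 0.42 in SEAGn. For genes called in SEAGn alone the medians were 0.30 in BALB and 0.70 in SEAGn. Selection by a call in 1 cross favors the larger change there, so these gaps are no trait of either cross. Fasn was called in BALB alone, with log2 1.41 in BALB and 0.25 in SEAGn. So was St6gal1, a sialyltransferase gene (1.15 and -0.46). Neither difference passed (FDR = 0.344 and 0.242).

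By list, the 14 alveolar type 1 genes had 8 rises in BALB and 11 in SEAGn, with medians of 1.32 and 1.97 on the log2 scale. The log2 change was the lower in BALB for 13 of the 14, and for none did the difference pass. Ager had log2 4.04 in BALB and 5.12 in SEAGn (difference -1.08 ± 0.54, FDR = 0.963), and Clic5 4.08 and 5.53 (-1.45 ± 0.62, FDR = 0.794). The fibrillar and fibril-associated collagen list had 9 falls in BALB and 10 in SEAGn, with medians of -1.26 and -1.58. The log2 change, counted with its sign, was the higher in BALB for 15 of 16. Col1a1 had -1.90 and -2.81 (difference 0.91 ± 0.39, FDR = 0.806). Skeletal muscle genes had medians of -3.94 and -1.89 and the lower log2 change in BALB for all 5 tested, with Ttn at -5.73 and -3.32 (difference -2.41 ± 1.25, FDR = 0.966). Interferon-stimulated genes had medians of -0.68 in BALB and -0.06 in SEAGn; the change was the lower in BALB for 19 of 20, with none passing (Rsad2, difference -1.28 ± 0.88, FDR = 1.00). Hypoxia and glycolysis genes had medians of 0.31 and -0.04 and the higher change in BALB for 15 of 19, again with none passing. The salivary and exocrine gland list, chosen after values were seen, had medians of -1.17 in BALB and 0.73 in SEAGn. The change was the lower in BALB for all 7 of its measured genes, and no difference passed. One of them, Spdef, had -2.48 and 1.07 (difference -3.55 ± 0.90, FDR = 0.127). Within a list these genes were measured in the same samples, so the counts are not independent of each other. Wap had the largest gap among milk genes, with 2.82 in BALB and -1.61 in SEAGn (difference 4.43 ± 1.14, FDR = 0.127).

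**Figure D5:**
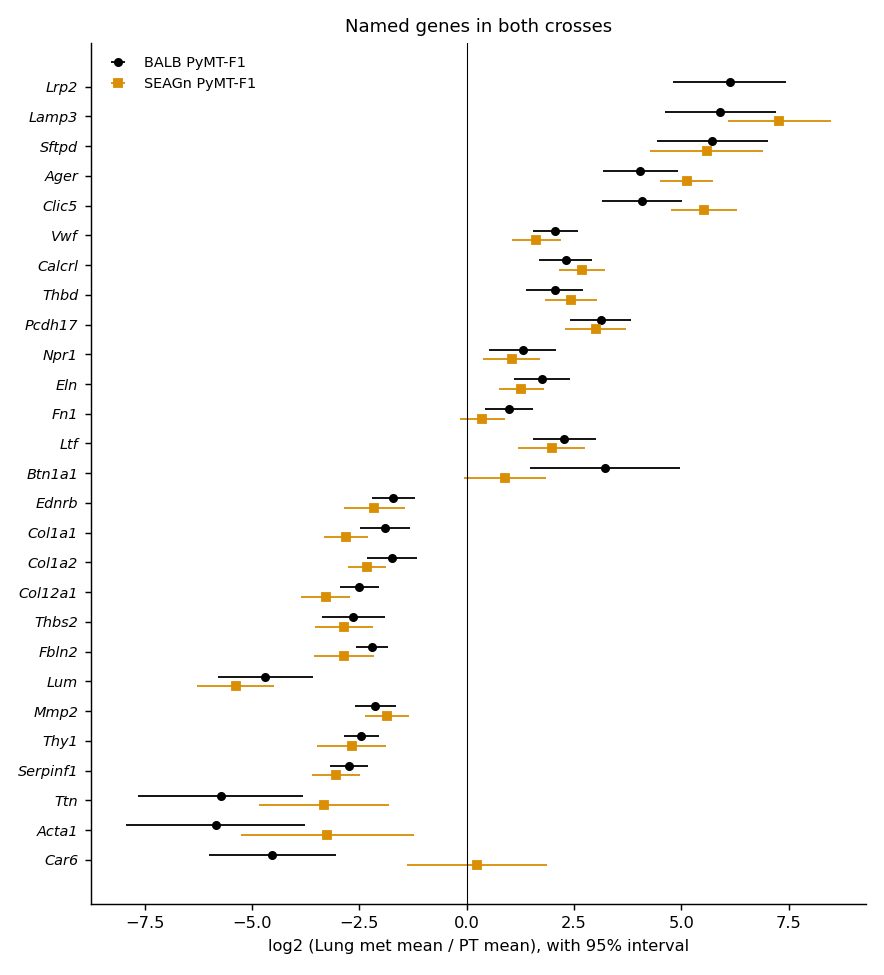
Log2 of the Lung met mean over the PT mean with 95% intervals for named genes in BALB (black circles) and SEAGn (orange squares; Lrp2 has no SEAGn value). Car6, at -4.53 in BALB and 0.24 in SEAGn, is the one gene shown with opposite signs.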

How the data were processed

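RNA from PT and Lung met tissue was sequenced, and the authors aligned the reads, counted and normalized them in Partek Flow and compared tissues with DESeq2. The submitters' notes name STAR 2.7.8a, DESeq2 and mm39, while the study's methods name mm9 and mm10 and the identifiers belong to a BALB/cJ annotation, so no coordinates of these rows are given. The labels describe stranded total RNA libraries and the methods mRNA libraries. The deposited signal columns are group means of normalized counts, and the deposited P-value column holds the authors' test of Lung met against PT. That column was used only to recompute the FDR (Benjamini-Hochberg over all rows with a P-value) and the SE (absolute log2 quotient over the normal quantile of the P-value). The authors' FDR, ratio and fold change columns, which hold the authors' adjusted p-values and effect sizes, and the tables of the 4 other models were not used. The tables were normalized separately, so levels were not compared between crosses. Total counts per sample are not in the files, so depth is unknown.

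The difference between crosses was tested with a two-sided normal test, with Benjamini-Hochberg adjustment over 16633 genes. Gene lists (44, and 6 added later) were described by counts and medians, without a test; symbols were matched directly or through older RefSeq symbols. Members and lists were chosen with earlier results of these data known. Named genes were the 15 higher and 15 lower genes of smallest FDR, up to 4 per list, 10 per direction of the difference, 9 genes the study names and 2 unnamed identifiers per direction; the text also gives further list members and some genes chosen after their values were seen. A few genes are counted but not reported here by name. The steps, run in Python 3.11.15 with scipy 1.17.1 and pandas 2.3.3, were tested on simulated data.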

Additional observations from a re-analysis of the deposited data

Results flagged for a closer look

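The change from PT to Lung met differed between the BALB and SEAGn crosses in 5 genes, each with the lower change in BALB. The differences of the log2 changes, BALB minus SEAGn, were -8.54 for 2310057J18Rik, -2.78 for Tspan1, -2.01 for Plb1, -1.43 for 2010016I18Rik and -0.80 for Pmvk. In BALB, 2310057J18Rik and Tspan1 fell, and the other three did not pass (Plb1 FDR = 0.992, Pmvk FDR = 0.928, 2010016I18Rik FDR = 0.206). With P-values above 0.9 in either table left out, because their implied SE is least certain, 4 of these calls were made. That rule removed Plb1 (BALB log2 0.02 ± 0.32) before testing, so its missing call is no result of a test.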

How the results depend on the processing

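No paired analysis was possible because the deposited tables hold group means and no single samples, although each animal gave both tissues; for the same reason no replicate could be left out. The counts of rows called higher and lower in BALB were 203 and 287. At an FDR under 0.01 they were 114 and 179, under the Benjamini-Yekutieli method, which allows any dependence between genes, 94 and 154, and with a quotient of at least 2, 128 and 203. An FDR under 0.1, a mean of at least 10, rows with a symbol only, a pseudocount of 1 and centring on the median each left both counts within 1.5 times. For the difference between crosses, no gene was higher in BALB and 5 were lower; at an FDR under 0.1 there were 1 and 9, at an FDR under 0.01 there were 3 lower, and under Benjamini-Yekutieli 1 lower. None of the 210 named genes changed sign with a pseudocount or centring, and 19 lost their call under Benjamini-Yekutieli. The means and P-values give no depth, and the SEs rest on the normal approximation.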
